A study of Mus musculus with 10 samples.

Results

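The genes Gfap, Vim, Nes, Lcn2, Serpina3n, Edn2, Fgf2, Stat3, Socs3 and Cp, which rise in Müller glia, astrocytes or photoreceptors of the injured retina, were examined in mouse neuroretina at day 14 of a treatment given into the vitreous. They were chosen by symbol, and all 10 were found among the 57186 Ensembl genes of the count table. Both groups were female C57BL6/JRj mice. One group received 1 µL of carbon nitride nanoparticles (hg-C3N4, labelled CNP) at 1 mg/mL, diluted in the saline buffer PBS. The other received PBS, so that the needle and the buffer are common to both, but no volume is given for the PBS injection. Each group held 5 libraries, named here by group and library number, from whole neuroretinas that were snap-frozen after dissection. By the design text the CNP libraries came from 5 mice and the PBS libraries from 5 eyes. Nothing else says whether each library came from its own animal, so that p-values measure the spread between libraries, part of which may be technical. Uninjected retinas were not analysed here, and a response to the injection that both groups share is not visible in the comparison.

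Reactive gliosis is the standard response of retinal glia to damage. Müller glia, which span the retina, and astrocytes, which lie along the nerve fibre layer, build up intermediate filaments, above all GFAP, together with vimentin and nestin. The response is driven in large part by cytokines of the interleukin 6 family, which signal through the shared receptor chain gp130, the JAK kinases and the transcription factor STAT3, and STAT3 induces its own inhibitor SOCS3. Acute-phase proteins such as lipocalin 2 are made alongside, while stressed photoreceptors release endothelin 2 and the growth factor FGF2 is raised in damaged retina.

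A STAT binding motif, TTCNNNGAA, which reads the same on both strands, was looked for in the promoters of the 10 genes, because STAT3 and its target Socs3 are among them. RefSeq promoter windows (GRCm38.p6, 250 bases before to 50 bases after the annotated start) were at hand for all 10 genes, in 11 windows. The motif was found for 2 of the 10 genes, and in 9.55% of 27025 genes with such windows. In the stretches below, the capitals mark the match, which began 154 bases before the start of Socs3 and 2 bases before that of Gfap. A match is a description of the letters only.
Socs3 (chr11:117969491-117969541, minus strand): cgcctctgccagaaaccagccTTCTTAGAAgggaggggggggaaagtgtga
Gfap (chr11:102897184-102897213, minus strand): aatgggggtgcTTCCAGGAAgtcaggggca

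The libraries held 3328518 to 5428697 counts each, and a count of 0 in 1 library would have allowed up to 0.553 CPM in the deepest and 0.901 CPM in the shallowest, for counting error only. Levels are given as CPM, a gene's counts relative to its library's total, where TMM scaling adjusts that total for composition. The tissue carried the markers of its labelled type: those of rods, led by Gnat1 and Sag, summed to 14136 to 25862 CPM and those of Müller glia, led by Clu and Glul, to 4168 to 5893 CPM, with no marker of either list at 0 in any library, while the 5 astrocyte markers, led by S100b and Aldh1l1, summed to 24.6 to 38.1 CPM. Lens markers, led by Cryaa and Crybb2, were also present, at 246 to 3527 CPM in CNP and 190.0 to 7415 CPM in PBS. So were pigment epithelium markers, led by Ttr and Rdh5, at 505 to 1412 CPM in CNP and 273 to 1294 CPM in PBS. Ttr alone held 26129 of the 31563 counts of that list, so that its sum is mostly the level of Ttr. Of the 10 marker lists, 0 differed between the groups (exact permutation test, two-sided; smallest unadjusted p = 0.278, for lens). The libraries also differed by their number: rod markers summed to 19485 to 25862 CPM in those numbered above 10 and to 14136 to 17741 CPM in those numbered up to 10, without overlap. This division was known from earlier results of these data, and the labels do not say what the number stands for. Numbered up to 10 were CNP 4 and CNP 8 with PBS 2, PBS 6 and PBS 10. Numbered above 10 were CNP 12, CNP 16 and CNP 20 with PBS 14 and PBS 18. The treatment groups were thus split unevenly, and a difference between CNP and PBS within a set rests on these few libraries.

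No gliosis or injury gene differed between CNP and PBS at an adjusted p under 0.05. With edgeR's quasi-likelihood test and Benjamini-Hochberg adjustment, 0 of the 8 genes with enough counts passed, beside 0% of all 11499 genes tested. The smallest edgeR adjusted p was 0.9997 both among the 8 and among all genes. An unadjusted edgeR p under 0.05 was reached by 137 genes (67 higher and 70 lower), with Fgf2 the only one of the 8 among them, and DESeq2 likewise called 0 genes. Of the 8 fold changes 4 were positive and 4 negative, with a median log2 fold change of -0.03, against -0.0036 over all genes tested. For 7 of the 8 genes the 95% interval left out a 2-fold difference either way, as it did for 93.9% of all genes tested. A wider interval, which shares the error of 0.05 over the 10 genes, did so for 4 of the 8. For 4 the 95% interval also left out a 1.5-fold difference, against 64.4% of all genes. Those 4 were Gfap, Vim, Cp and Stat3. This depended on the scaling: on library totals without TMM, only Vim of these still left out 1.5-fold both ways. There the 95% interval ran from -0.48 to 0.60 for Gfap, -0.70 to 0.53 for Cp and -0.64 to 0.46 for Stat3. Without PBS 2, that of Gfap reached 0.66. The CNP and PBS libraries overlapped for all 8, and lay apart for 0.287% of all genes tested. All 10 genes were detected in every library, but Nes and Edn2 had too few counts for the filter and were fitted on the table without it.

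**Figure D1:**
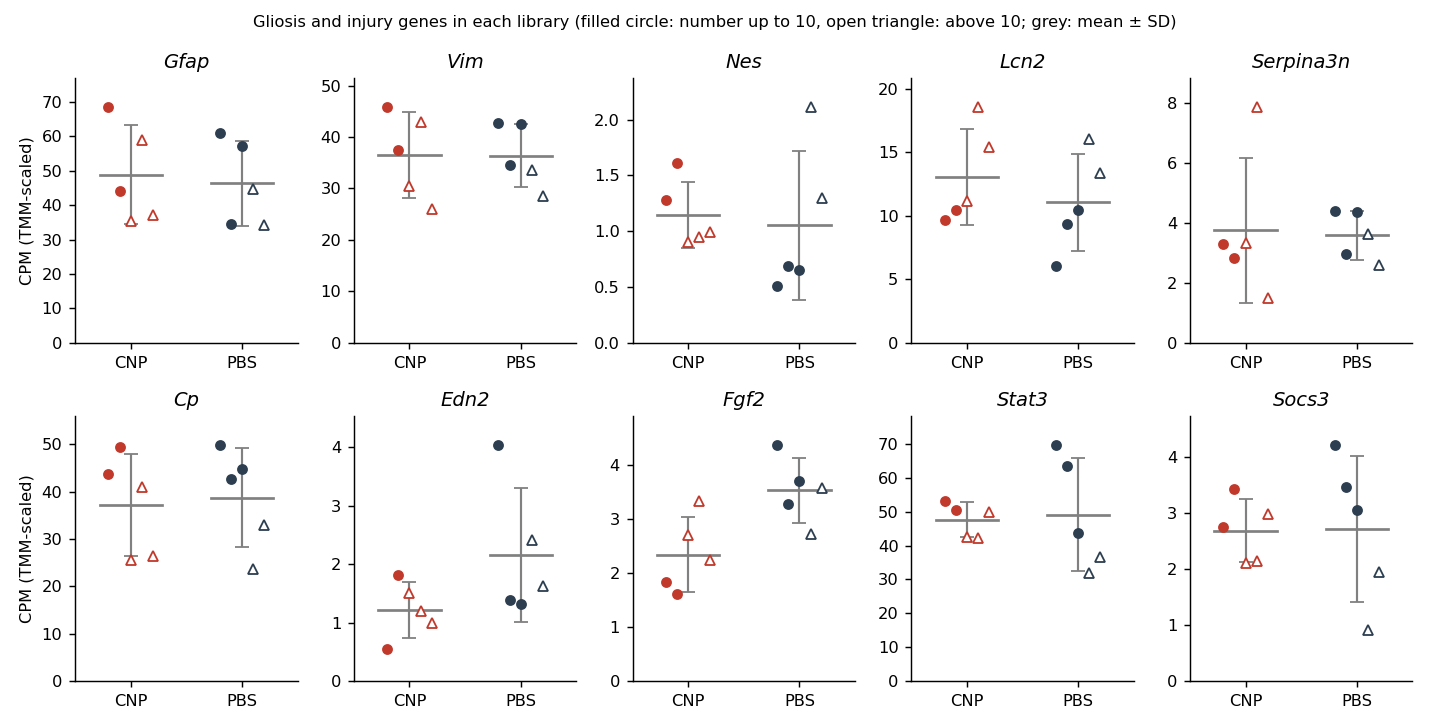
TMM-scaled CPM of the 10 genes in each library, with CNP at left and PBS at right in each panel (5 libraries each). Points are libraries, filled circles those numbered up to 10 and open triangles those above 10, and grey lines show the mean and SD. The groups overlap for every gene, and Fgf2 and Edn2 are the genes with the lowest CNP mean relative to the PBS mean.

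The intermediate filament genes differed between the groups by less than the spread of the libraries. Gfap (ENSMUSG00000020932), the standard marker of gliosis, measured 68.5 CPM in CNP 4, 44.0 in CNP 8, 35.5 in CNP 12, 58.8 in CNP 16 and 37.0 in CNP 20. In the PBS libraries it measured 60.9 CPM in PBS 2, 34.6 in PBS 6, 57.2 in PBS 10, 44.7 in PBS 14 and 34.2 in PBS 18. High and low libraries occurred in both groups, and the 2 ranges almost coincided. The mean was 48.8 ± 14.4 CPM in CNP and 46.3 ± 12.4 CPM in PBS (SD, n = 5 each). The edgeR log2 fold change was 0.08 (SE 0.22). Its 95% interval, from -0.39 to 0.54, left out a rise of more than 1.46-fold and a fall of more than 1.31-fold. A wider interval, which shares the error of 0.05 over the 10 genes, left out a rise of more than 1.75-fold.

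Vim (ENSMUSG00000026728), which encodes the vimentin that resting Müller glia already contain, was the steadiest of the 10 genes, with a coefficient of variation of 18.8% over the libraries. It measured 45.9, 37.4, 30.4, 42.9 and 26.1 CPM in CNP 4, 8, 12, 16 and 20, against 42.7, 34.6, 42.6, 33.5 and 28.6 CPM in PBS 2, 6, 10, 14 and 18. The lowest and the highest library both belonged to CNP. The mean was 36.5 ± 8.28 CPM in CNP and 36.4 ± 6.10 CPM in PBS (SD, n = 5 each), and the log2 fold change was 0.0038 (95% interval -0.35 to 0.36). That interval left out a rise of more than 1.28-fold and a fall of more than 1.28-fold. Vessel walls and other cells also express Vim, so that its level is not that of glia alone.

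Nes (ENSMUSG00000004891), which encodes the filament protein nestin of progenitors and injured glia, was close to the limit of detection, with 3 to 8 counts a library. It had 26 counts in all in CNP and 21 in PBS. Pooled over the libraries this came to 1.18 CPM in CNP (exact Poisson 95% interval 0.773 to 1.73) and 0.940 CPM in PBS (0.582 to 1.44), where the intervals cover counting error only. Among single libraries the highest value was in PBS 14 (2.11 CPM) and the lowest in PBS 2 (0.506 CPM), so that the CNP range of 0.903 to 1.61 CPM lay inside that of PBS, with all 5 CNP libraries above the PBS median. The edgeR log2 fold change, fitted without the low-count filter, was 0.29 (95% interval -0.66 to 1.24), which does not leave out a 2-fold rise. Without PBS 14 it was 0.66 (SE 0.48) and without PBS 2 it was 0.09 (SE 0.48), and CNP minus PBS in mean log2 CPM was -0.60 for library numbers above 10 and 0.83 for numbers up to 10.

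The genes for secreted acute-phase proteins did not separate the groups either. Lcn2 (ENSMUSG00000026822), which encodes the iron-carrier-binding protein lipocalin 2, measured 9.69 CPM in CNP 4, 10.5 in CNP 8, 11.1 in CNP 12, 18.6 in CNP 16 and 15.4 in CNP 20. It measured 6.07 CPM in PBS 2, 9.35 in PBS 6, 10.5 in PBS 10, 16.01 in PBS 14 and 13.3 in PBS 18. In both groups the libraries numbered above 10 held the most, and the lowest value of all was that of PBS 2. All libraries above 10 exceeded all those up to 10 for 9.82% of genes tested, Lcn2 among them. The mean was 13.1 ± 3.80 CPM in CNP and 11.05 ± 3.80 CPM in PBS (SD, n = 5 each). Lcn2 had the largest positive fold change of the 8 tested genes, a log2 value of 0.27 (SE 0.26), with a 95% interval of -0.29 to 0.84 that left out a rise of more than 1.78-fold. With the library number as a covariate the log2 fold change was 0.14 (SE 0.18), with lens markers as a covariate 0.35 (SE 0.29), and without 1 library it ran between 0.10 (without PBS 2) and 0.44 (without PBS 14).

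Serpina3n (ENSMUSG00000021091), which encodes a serine protease inhibitor used as a marker of reactive astrocytes, turned on a single library. It measured 7.86 CPM in CNP 16 and 1.49 to 3.31 CPM in the other CNP libraries, against 2.60 to 4.38 CPM in PBS. CNP 16 was therefore the only CNP library above all of PBS, and CNP 20 the only one below all of it. The mean was 3.75 ± 2.41 CPM in CNP and 3.58 ± 0.810 CPM in PBS (SD, n = 5 each). The log2 fold change was 0.04 (95% interval -0.73 to 0.82), and without CNP 16 it was -0.40 (SE 0.28).

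Cp (ENSMUSG00000003617), which encodes the copper-containing iron oxidase ceruloplasmin, varied more with library number than with treatment. It measured 43.7, 49.4, 25.6, 41.0 and 26.4 CPM in CNP 4, 8, 12, 16 and 20, against 49.9, 42.6, 44.7, 23.6 and 32.9 CPM in PBS 2, 6, 10, 14 and 18. The 5 libraries numbered above 10 all lay below the 5 numbered up to 10, as they did for 10.8% of all genes tested. The treatment groups overlapped almost fully. The mean was 37.2 ± 10.7 CPM in CNP and 38.7 ± 10.5 CPM in PBS (SD, n = 5 each), and the log2 fold change was -0.06 (95% interval -0.54 to 0.42). This left out a rise of more than 1.34-fold and a fall of more than 1.46-fold.

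**Figure D2:**
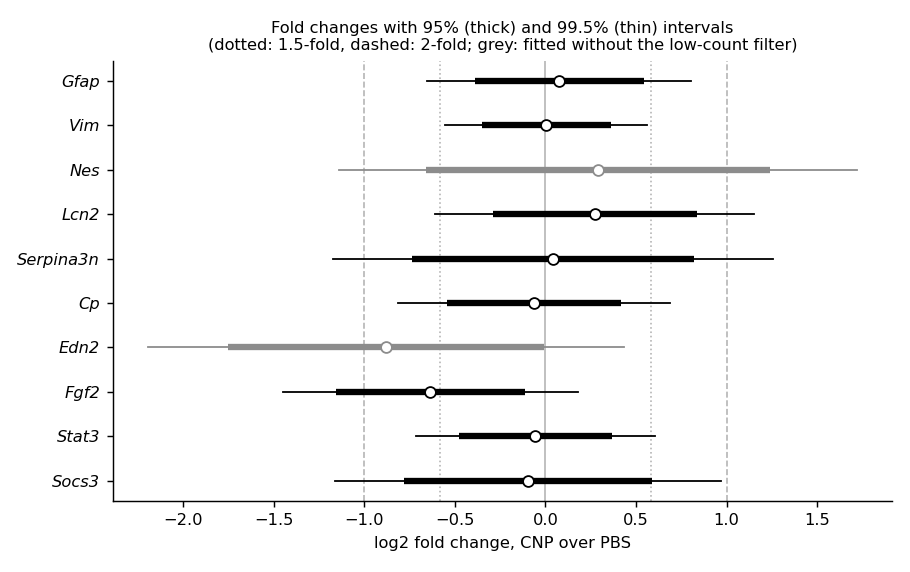
Log2 fold change of each gene, CNP over PBS, from edgeR (circles), with 95% intervals as thick bars and intervals that share the error over the 10 genes as thin bars; dotted and dashed lines mark 1.5-fold and 2-fold, and grey genes were fitted without the low-count filter. The 95% intervals of Gfap, Vim, Cp and Stat3 lie inside the dotted lines, whereas those of Fgf2 and Edn2 lie below 0 and reach past a 2-fold fall.

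The secreted signals Fgf2 and Edn2 had the smallest p-values of the 10 genes, both on the lower side, and neither passed the adjusted threshold. Fgf2 (ENSMUSG00000037225), a growth factor that protects photoreceptors in rodents, measured 1.83 CPM in CNP 4, 1.61 in CNP 8, 2.71 in CNP 12, 3.33 in CNP 16 and 2.24 in CNP 20. In PBS it measured 4.38 CPM in PBS 2, 3.29 in PBS 6, 3.71 in PBS 10, 2.72 in PBS 14 and 3.58 in PBS 18. All 5 CNP libraries lay below the PBS median, and only CNP 16 reached into the PBS range. These values rested on 50 counts in CNP and 82 in PBS. The mean was 2.34 ± 0.695 CPM in CNP and 3.54 ± 0.608 CPM in PBS (SD, n = 5 each). Fgf2 had a log2 fold change of -0.64 (SE 0.24, 95% interval -1.16 to -0.12, edgeR adjusted p = 0.9997). The unadjusted p was 0.0205 with edgeR and 0.0317 in an exact permutation of the log2 CPM, and 1.19% of all genes tested had an unadjusted edgeR p under 0.05. The interval that shares the error over the 10 genes, from -1.45 to 0.18, included no change. Without 1 library the edgeR log2 fold change ran from -0.80 to -0.51, with unadjusted p from 0.00715 to 0.0659 and negative values throughout. In mean log2 CPM, CNP minus PBS was -0.17 for library numbers above 10 and -0.96 for numbers up to 10.

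Edn2 (ENSMUSG00000028635), the endothelin that stressed mouse photoreceptors release to signal to Müller glia, was scarce, and a single PBS library held 24 of its 77 counts. That library was PBS 2, at 4.05 CPM, and every other library held 3 to 9 counts. The other PBS libraries measured 1.31 to 2.42 CPM, and the CNP libraries 0.548 CPM in CNP 4, 1.81 in CNP 8, 1.51 in CNP 12, 1.19 in CNP 16 and 0.994 in CNP 20. Apart from PBS 2 and PBS 14, every PBS library lay inside the CNP range. Fitted without the low-count filter, Edn2 had a log2 fold change of -0.88 (SE 0.42, 95% interval -1.75 to -0.0060, edgeR adjusted p = 0.928), and without 1 library between -1.11 (without CNP 8) and -0.45 (without PBS 2), negative in each of these fits. The unadjusted p was 0.0486 with edgeR and 0.103 in an exact permutation of the log2 CPM. PBS 2 also held the most Fgf2, Stat3, Socs3 and, narrowly, Cp of all 10 libraries, and the least Lcn2 and Nes.

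Stat3 and Socs3 had close means in the groups and a wider range in PBS. Stat3 (ENSMUSG00000004040), the transcription factor at the centre of the gliosis response, measured 53.2 CPM in CNP 4, 50.6 in CNP 8, 42.5 in CNP 12, 42.2 in CNP 16 and 49.97 in CNP 20. It measured 69.8 CPM in PBS 2, 63.5 in PBS 6, 43.6 in PBS 10, 32.0 in PBS 14 and 36.8 in PBS 18. The CNP values fell entirely inside the PBS range. The mean was 47.7 ± 5.06 CPM in CNP and 49.2 ± 16.7 CPM in PBS (SD, n = 5 each); the difference in spread was not tested. The log2 fold change was -0.06 (95% interval -0.48 to 0.37), which left out a rise of more than 1.29-fold and a fall of more than 1.39-fold.

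Socs3 (ENSMUSG00000053113), the inhibitor that STAT3 induces, measured 2.74, 3.42, 2.11, 2.14 and 2.98 CPM in CNP 4, 8, 12, 16 and 20, against 4.21, 3.46, 3.06, 0.906 and 1.95 CPM in PBS 2, 6, 10, 14 and 18. As for Stat3, the CNP values lay inside the PBS range, with PBS 2 at the top and PBS 14 at the bottom. The mean was 2.68 ± 0.560 CPM in CNP and 2.72 ± 1.30 CPM in PBS (SD, n = 5 each). The log2 fold change was -0.10 (95% interval -0.78 to 0.59), which left out a rise of more than 1.501-fold and a fall of more than 1.72-fold. Among libraries numbered above 10 the mean log2 CPM was higher in CNP by 0.65 for Socs3 and by 0.38 for Stat3, and among those up to 10 the differences were -0.19 and -0.16.

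**Figure D3:**
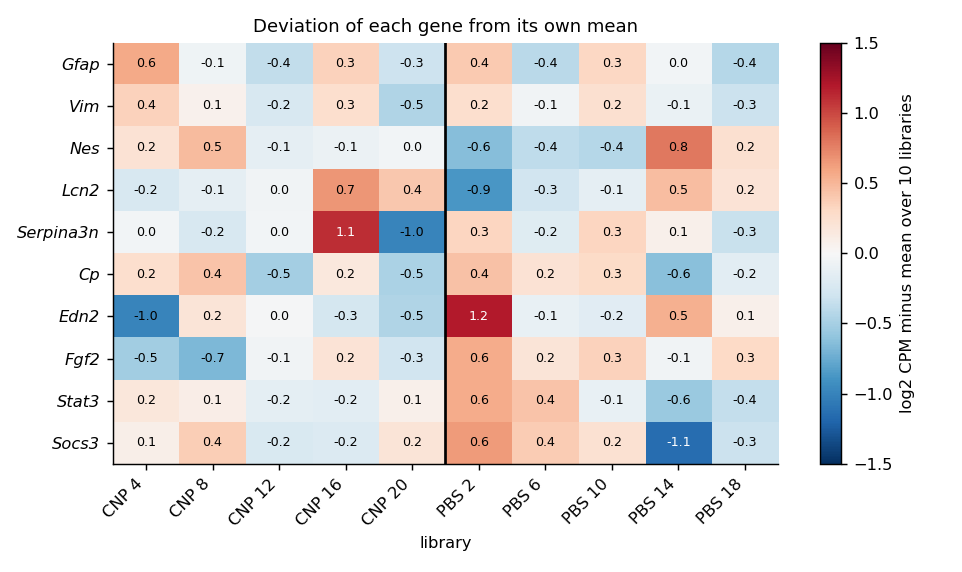
Log2 CPM of each gene in each library minus that gene's mean over the 10 libraries (red above, blue below), with the CNP libraries left of the black line and the PBS libraries right of it. Rows of Gfap and Vim share their colours across libraries, as do those of Stat3 and Socs3; CNP 16 stands out for Serpina3n, and PBS 2 for Edn2.

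The genes varied together in pairs that crossed the treatment groups. Of 28 pairs among the 8 tested genes, 2 passed on Pearson's r and 4 on Spearman's rho after Benjamini-Hochberg adjustment over the 28. The 2 that passed on rho alone, Lcn2 with Stat3 and Cp with Socs3, each hold a gene that divided the libraries by number. For Lcn2 with Stat3, r was -0.765 over the 10 libraries and -0.473 for deviations from the mean of each set of library numbers. For Cp with Socs3, these values were 0.739 and 0.375. Both pairs had a weaker r within the sets, where no p-value was computed. Stat3 and Socs3 had r = 0.895 and rho = 0.903 over the 10 libraries (permutation p = 0.00015 for r and 0.0008 for rho; adjusted 0.0042 and 0.0195). Without PBS 2 and PBS 14, which lay farthest from the Stat3 median, r was 0.817, and for deviations from the mean of each set of library numbers it was 0.787. Gfap and Vim, the filament genes, had r = 0.902 and rho = 0.842 (permutation p = 0.00083 and 0.00357; adjusted 0.0116 and 0.0333). Without PBS 2 and CNP 4 r was 0.851, and for deviations within the sets it was 0.899. The relations of Stat3 with Socs3 and of Gfap with Vim kept their direction and most of their size within the sets of library numbers. They were not alone in this. Vim with Serpina3n, which did not pass (r = 0.727, permutation p adjusted 0.0622), had r = 0.899 for deviations within the sets, and Gfap with Serpina3n had 0.662. Across the pairs, Gfap and Stat3 had r = 0.222 (permutation p = 0.53). In whole tissue, a change in the number of glial cells and a change in the RNA of each cell cannot be told apart, and both genes of a pair come from the same library.

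**Figure D4:**
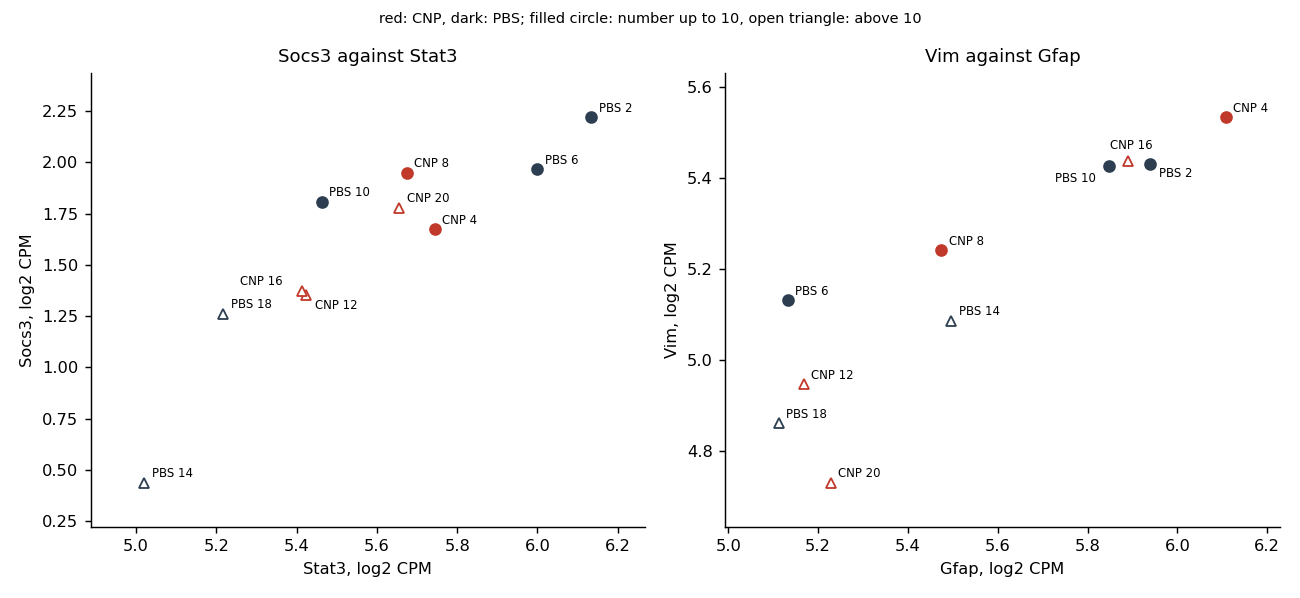
Log2 CPM of Socs3 against Stat3 (left) and of Vim against Gfap (right) in the 10 libraries, CNP in red and PBS in dark blue, filled circles for libraries numbered up to 10 and open triangles for those above 10. In both panels the points rise together, with r = 0.895 at left and 0.902 at right, and CNP and PBS points lie along the same line.

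Among 5666 other genes with a mean of 20 CPM or more, Vim ranked second in likeness to Gfap. The 3 genes most like Gfap in log2 CPM over the 10 libraries were Mrpl4, a mitochondrial ribosomal protein gene (r = 0.929), Vim (r = 0.902) and Idh3b, a subunit of a mitochondrial dehydrogenase (r = 0.901). These are the highest of many values and are given as a description, over libraries that share depth and composition.

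Lcn2 and Cp divided the libraries by number, in opposite directions. Lcn2 measured 11.1 to 18.6 CPM in the libraries numbered above 10 and 6.07 to 10.5 CPM in those up to 10. Cp measured 23.6 to 41.0 CPM above 10 and 42.6 to 49.9 CPM up to 10. Neither gene overlapped between the sets, nor did 20.6% of all genes tested (10.8% lower above 10 and 9.82% higher), so that 2 of 8 is near the background. The mean log2 CPM was also lower above 10 for Socs3 (-0.68), Stat3 (-0.46), Vim (-0.34) and Gfap (-0.32), with overlap, against a median of -0.03 over all genes tested. Müller glia markers summed to 4168 to 5591 CPM above 10 and 5051 to 5893 CPM up to 10, and pigment epithelium markers to 787 to 1412 CPM above 10 and 273 to 729 CPM up to 10 without overlap; their part in these levels was not tested. Because of this division the pooled correlations of pairs with Lcn2 or Cp are not read as a relation between the genes.

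Genes around the 10 were examined in 6 related lists, and 0 of their members passed in either direction, beside 0% of all genes tested. In gp130 and STAT3 signalling, 24 of 34 genes could be tested, 12 positive and 12 negative, with a median log2 fold change of 0.0061. Of the ligands, Il6 and Cntf had 0 counts in all libraries and Osm had 1. Of the receptors, Il11ra1, Lifr, Cntfr, Il6st and Osmr could be tested and Il6ra, with 24 counts, could not. Their log2 fold changes ran from -0.06 (Osmr) to 0.26 (Il11ra1, 95% interval -0.06 to 0.57). The most abundant members were the immediate early factor Junb (110.3 ± 14.4 CPM in CNP and 102 ± 17.2 CPM in PBS), the phosphatase Ptpn2 (85.1 ± 13.9 CPM in CNP and 74.7 ± 9.55 CPM in PBS) and the STAT3 inhibitor Pias3 (77.9 ± 9.29 CPM in CNP and 77.2 ± 6.18 CPM in PBS), all SD with n = 5. The member with the smallest p was Jak2, a kinase bound to cytokine receptors, at 3.295 ± 0.601 CPM in CNP and 2.20 ± 0.732 CPM in PBS (SD, n = 5 each). For Jak2 the log2 fold change came to 0.59 (edgeR 95% interval 0.04 to 1.14, adjusted p = 0.9997).

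The partners of Fgf2 and Edn2 gave no call. Of 18 other genes of FGF signalling 12 could be tested, 4 positive and 8 negative, with a median log2 fold change of -0.16. Spry2, an inhibitor that FGF signalling induces, had -0.41 (95% interval -1.35 to 0.54), Fgf12 had 0.06 and Fgf13 0.01. Fgf14, which like those is an intracellular FGF relative that binds sodium channels, had the smallest p. It measured 2.51 ± 1.23 CPM in CNP and 4.74 ± 1.49 CPM in PBS (SD, n = 5 each), a log2 fold change of -0.89 (95% interval -1.62 to -0.17, edgeR adjusted p = 0.9997). Of the receptor genes on the list only Fgfr1 could be tested (-0.19). Of 6 endothelin genes 2 could be tested: Ece1, the enzyme that releases active endothelin, had -0.27 and the receptor gene Ednrb, which Müller glia express, had 0.06, with 95% intervals of -0.93 to 0.40 and -0.68 to 0.79.

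Filament partners, iron genes and a reactive astrocyte panel had medians near 0. Of 11 filament partners 10 could be tested, with a median log2 fold change of 0.0011; the neurofilament genes Nefl, Ina and Nefm had 0.11, -0.12 and 0.19, and the nuclear lamin gene Lmna, with the smallest p, -0.32. Of 11 iron genes 9 could be tested, with a median of 0.0011. The ferritin chains Ftl1 and Fth1 had -0.02 and 0.0011, transferrin (Trf) 0.32, and the iron hormone hepcidin (Hamp) -0.45 with a 95% interval of -1.05 to 0.14. Of 29 genes in the astrocyte panel 14 could be tested, 7 positive and 7 negative, with a median of 0.0035. The class I gene H2-D1 had -0.09 and the cell adhesion gene Amigo2 -0.22. S100a10, an S100 family gene of the panel's A2 set, had the smallest p, with 80.4 ± 9.76 CPM in CNP and 68.5 ± 6.10 CPM in PBS (SD, n = 5 each). For S100a10 the log2 fold change came to 0.23 (edgeR 95% interval 0.0055 to 0.45, adjusted p = 0.9997). Of the panel's pan-reactive genes, Cd44, S1pr3 and Hspb1 could be tested, with log2 fold changes of 0.14, -0.06 and -0.34. Steap4, Cxcl10, Timp1 and Aspg could not, with 61, 23, 18 and 1 counts over all 10 libraries. Steap4 measured 2.04 ± 1.52 CPM in CNP and 0.799 ± 0.461 CPM in PBS (SD, n = 5 each), without a test.

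**Figure D5:**
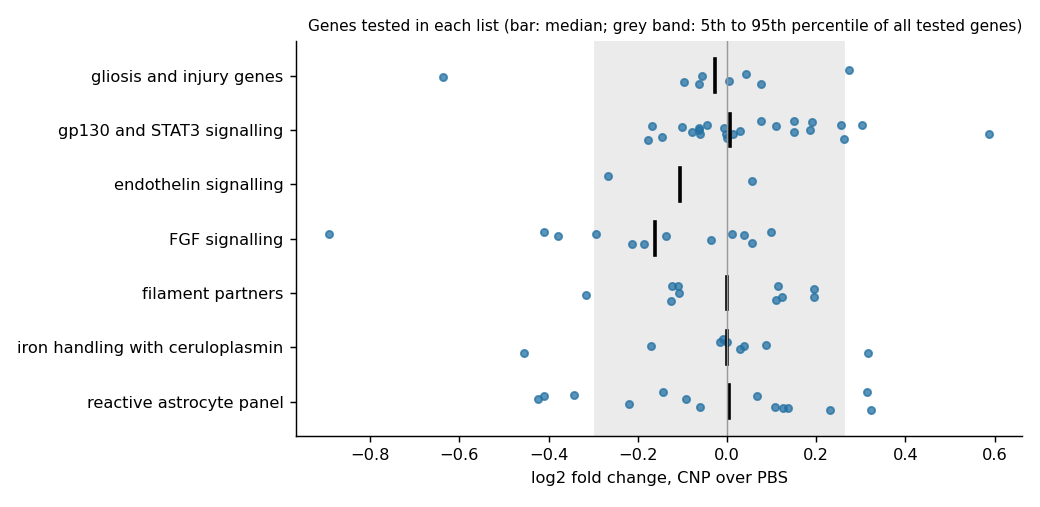
Log2 fold change, CNP over PBS, of each tested gene in the gliosis and injury genes and the 6 related lists; black bars are medians, and the grey band spans the 5th to 95th percentile of all 11499 genes tested (-0.30 to 0.26). The medians lie between -0.16 (FGF signalling) and 0.01, and the points farthest from 0 are Fgf14, Fgf2 and Jak2.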

How the data were processed

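Polyadenylated RNA was reverse transcribed with barcoded primers carrying molecular identifiers, then amplified, with library construction by a 10x Genomics kit, per the labels' protocols. The authors deposited raw whole-number counts per Ensembl gene for 10 libraries. STAR, STARsolo and build GRCm39 are named, per the submitters' processing notes. For tool versions, gene annotation, strand use and identifier collapsing nothing is stated (not given in the sources used here), and without collapsing counting error is understated. Symbols were looked up by Ensembl ID. The 20 within-group library pairs had a chi-square per degree of freedom of 3.99 to 32.6, so none was a duplicate.

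Genes were filtered with filterByExpr (minimum count 10, minimum total 15), scaled by TMM and tested with edgeR 4.0.16 in R 4.3.3 (quasi-likelihood, two-sided, Benjamini-Hochberg over 11499 genes, threshold 0.05), CNP over PBS. SEs and intervals follow from the F statistic, or from the p where edgeR's Poisson bound had raised it (0 of the 8 tested members). Log2 CPM used a prior count of 2. Group means were compared over all 252 assignments (smallest two-sided p 0.00794), and correlations used 100000 permutations. The scripts were tested on simulated counts. Coordinates come from RefSeq on GRCm38.p6, not the counting build.

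The members and lists were chosen with earlier results of these data known. A marker gene of a cell type list is not reported here and is left out of its sum. All 10 members were named; of each list, the 3 most abundant tested genes and the one with the smallest p. Other list members, among them Osm, Il6, Cntf, the receptors and the pan-reactive genes, were added after their values were seen. Alternatives were DESeq2 1.42.0, limma-voom (limma 3.58.1), other scalings, other filters, robust dispersions, 3 covariates and leaving out each library.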

Additional observations from a re-analysis of the deposited data

Results flagged for a closer look

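In 40 groups of 5 libraries (10 genes and 10 marker sums in CNP and in PBS), a single library stood far from the other 4 in 3, where chance alone marks about 1 in 20. Serpina3n measured 7.86 CPM in CNP 16 and 1.49 to 3.31 CPM in the other CNP libraries. Lens markers summed to 3530 CPM in CNP 8 and to 246 to 1020 CPM in the rest of CNP. Mural cell markers summed to 41.4 CPM in PBS 6 and to 54.3 to 56.3 CPM in the other PBS libraries.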

How the results depend on the processing

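No alternative called a gliosis or injury gene, a gene of the related lists or any other gene. Unadjusted p-values under 0.05 were met by 137 genes with edgeR, 87 with DESeq2, 272 and 304 with library number and pigment epithelium markers as covariates, 301 without PBS 14 and 422 of 22756 genes without the low-count filter. Under the other methods, scalings, filters and covariates the log2 fold change reversed for 5 genes with values near 0, and the cause was not tested. Vim reversed with limma-voom (-0.0128), on library totals (-0.0104), with lens markers as a covariate (-0.0303) and in exact permutation (-0.0093). Serpina3n reversed with limma-voom (-0.12), lens markers (-0.0835) and exact permutation (-0.0815). With library number as a covariate Cp reversed to 0.0771, Stat3 to 0.0696 and Socs3 to 0.0695, and with pigment epithelium markers Cp reversed to 0.0598, Stat3 to 0.0945 and Socs3 to 0.15. In exact permutation Stat3 reversed to 0.0153 and Socs3 to 0.0864, and Socs3 to 0.0193 with limma-voom. Fgf2 passed an unadjusted threshold in exact permutation (-0.53). Within libraries numbered above 10 the differences in mean log2 CPM moved to -0.60 for Nes, -0.17 for Fgf2, 0.38 for Stat3 and 0.65 for Socs3, and within those up to 10 to 0.83 for Nes and -0.96 for Fgf2.

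Leaving out 1 library, log2 fold changes ran from -0.0769 (without CNP 4) to 0.19 (without PBS 2) for Gfap, -0.0899 (without CNP 4) to 0.10 (without CNP 20) for Vim, 0.09 to 0.66 for Nes, 0.10 to 0.44 for Lcn2, -0.40 (without CNP 16) to 0.23 (without CNP 20) for Serpina3n, -0.19 (without PBS 14) to 0.0433 (without PBS 2) for Cp, -1.11 to -0.45 for Edn2, -0.80 to -0.51 for Fgf2, -0.17 (without PBS 14) to 0.10 (without PBS 2) for Stat3 and -0.28 (without PBS 14) to 0.12 (without PBS 2) for Socs3. Marker sums, CNP minus PBS in CPM, ran from -36.0 to 395 for Müller glia, -2.77 to 0.509 for astrocytes, -1403 to 1284 for rods, -6.43 to 6.59 for endothelium and -0.0344 to 5.63 for fibroblasts, and the endothelial one was -0.699 on library totals. No paired analysis was possible because the groups share no replicate numbers. Depth limits Nes, Edn2, Fgf2, Serpina3n and Socs3, which had 47 to 165 counts over all libraries.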
